A study of Mus musculus with 2 samples.

Results

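The hypoxia factor pathway was examined in mouse CD4+ T cells through 7 genes picked by name: Hif1a and Arnt, which encode the factor itself, Egln1, Egln2 and Hif1an, which encode its oxygen sensors, Vhl, which marks it for destruction, and Vegfa, one of its targets. Of these genes 6 had junctions that could be named, among 9643 named genes in all, and all 6 passed the minimum of 20 reads, as did 7195 genes of the series. The choice of the 7 genes was made with results of these libraries already known, so their values are descriptions and carry no test.

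The stimulated library came from male C57BL/6JJcl mice, from splenic CD4+ T cells held for 4 h on plates coated with anti-CD3e and anti-CD28 at 2 ug/ml each. The mock library came from cells of the same strain, sex and source held in the same way on plates without antibody. The cells were enriched for CD4+ T cells with magnetic beads from 4 pooled spleens, so animals cannot be told apart, and the labels do not say whether both libraries came from 1 pool or give the age of the mice. With 1 library per condition there was no replicate, and each difference is one between these 2 libraries. The stimulated library held 1341197 reads that span a splice junction and the mock library 1147232. Exact (Clopper-Pearson) 95% intervals are given and cover counting error only, because 1 library per condition gives no spread between samples. Several reads can stem from 1 molecule, so the intervals can be too narrow even for that error. Levels are given as RPM, the reads of a gene or junction per 1000000 junction-spanning reads of the library. A gene with no read could still be present at up to 2.24 RPM in the stimulated library and 2.61 RPM in the mock library, which is 3 reads. In material of this kind, fewer cells of a type and less RNA per cell cannot be told apart.

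HIF-1 is a pair of proteins. The alpha chain, from Hif1a, is made all the time and, when oxygen is plentiful, is hydroxylated by the prolyl hydroxylases, recognised by the VHL ubiquitin ligase and degraded. The beta chain, from Arnt, is stable and is shared with other factors. The pair binds short DNA elements with the core ACGTG or GCGTG and switches on genes for glycolysis, iron uptake and blood vessel growth. In T cells, receptor signals are known to raise the factor even where oxygen is not limiting, and its activity is linked to effector function and to the choice between helper and regulatory fates.

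Vegfa was higher in the stimulated library, Arnt and Egln1 were lower, and Hif1a, Egln2 and Hif1an were called neither higher nor lower. A gene was called higher or lower when its ratio, from the RPM summed over its named junctions, was at least 2-fold and the interval excluded 1. By that rule 17.1% of the 7195 measured genes were higher and 25.1% were lower, so 2 lower genes among 6 is not far from the background. Higher genes made up 40.4% of all called genes with libraries scaled by total junction reads and 52.5% with a trimmed mean of M values, an edgeR scaling. That scaling adds 0.24 to each log2 ratio and moves the median of all genes to 0.03, against −0.21 as scaled here. Relative to that shift, only Hif1an among the 6 genes changed sign, at −0.11 as scaled here and 0.14 with the trimmed mean.

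**Figure D1:**
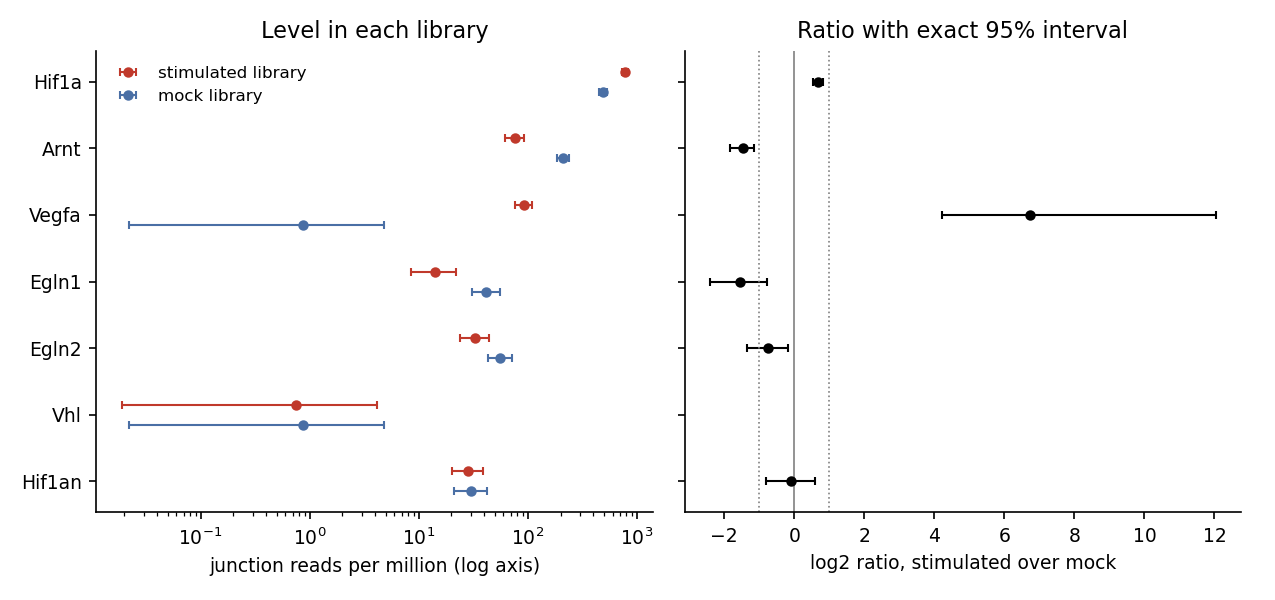
Junction RPM on a log axis in the stimulated and mock libraries (left, bars are exact Poisson 95% intervals) and log2 ratio of stimulated over mock with its exact 95% interval (right, dotted lines at a 2-fold difference). Vegfa lies at a log2 ratio of 6.73, Arnt and Egln1 lie at −1.48 and −1.56, and Vhl has 1 read in each library and no ratio.

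Per named junction, which stands in for a level per length, Hif1a had the highest level in both libraries, at 55.6 RPM per junction in the stimulated library and 34.7 in the mock library. Vegfa came next in the stimulated library at 13.2, above Egln2 at 6.56, Hif1an at 4.72, Arnt at 3.62 and Egln1 at 3.54. The intervals of Egln2 (4.77 to 8.81), Hif1an (3.34 to 6.48) and Egln1 (2.13 to 5.53) overlapped, and that of Arnt (2.95 to 4.40) overlapped those of Hif1an and Egln1, so of these only Egln2 and Arnt were apart. In the mock library Egln2 at 11.2, Egln1 at 10.5 and Arnt at 10.1 could not be ordered either, Hif1an stood below them at 5.08, and Vegfa was last at 0.125. Vegfa thus stood next to Hif1a in the stimulated library and last in the mock library.

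Vegfa encodes vascular endothelial growth factor A, a secreted protein that makes endothelial cells grow and vessels leak, and is a classical target of HIF-1. It had 124 junction reads in the stimulated library and 1 in the mock library, or 92.5 and 0.872 RPM. The ratio was 106 with an interval of 18.7 to 4223, wide because a single mock read sets it. Its 7 named junctions lie between the first and last introns at chr17:46155829-46168239 (mm9, minus strand), and each had higher RPM in the stimulated library. The mock read was on the junction from exon 3 to exon 4, so 6 of the 7 junctions were seen in the stimulated library only. Without that junction the counts were 106 and 0. With the mock count set to 3 reads the ratio was 30.2. The lower interval limit, from the counts as read, was 24.2. In the stimulated library the reads ran from 12 between exons 1 and 2 to 5 between exons 2 and 3, 18 between exons 3 and 4, and 49 between exons 4 and 5. Counting only junctions seen in both libraries leaves the exon 3 to exon 4 junction alone, with 18 and 1 reads, a log2 ratio of 3.94 and a total under the minimum. The most-read junction alone, with 49 and 0 reads, gave a log2 ratio of 3.80 against 3 mock reads.

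The forms of Vegfa differ in which exons follow exon 5, and the junctions told these apart in the stimulated library. Exon 7 codes for much of the stretch with which the longer forms bind heparin and cell surfaces. The form without exons 6 and 7 diffuses freely. The sequences are shown because exon 7, in capitals in the first and left out of the second, is the whole difference between the 2 forms that had reads. Exon 6, the third sequence, had no read on any of its junctions in either library. The sequences are from GENCODE transcripts, 5′ to 3′, in the coding sense of chromosome 17, with exon 8 up to the stop codon.
Vegfa exon 5, exon 7 and the coding part of exon 8: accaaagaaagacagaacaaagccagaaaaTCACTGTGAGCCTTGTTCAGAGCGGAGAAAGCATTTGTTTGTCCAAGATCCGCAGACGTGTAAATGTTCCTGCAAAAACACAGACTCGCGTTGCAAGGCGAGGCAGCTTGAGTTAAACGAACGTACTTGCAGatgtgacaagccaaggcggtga
Vegfa exon 5 and the coding part of exon 8: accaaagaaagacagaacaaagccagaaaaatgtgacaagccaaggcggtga
Vegfa exon 6: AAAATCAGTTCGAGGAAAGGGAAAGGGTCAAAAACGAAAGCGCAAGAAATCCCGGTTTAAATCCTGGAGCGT

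The junction from exon 5 straight to exon 8 (chr17:46155829-46161013), which makes the short form, had 22 stimulated reads. The junction from exon 5 to exon 7 (chr17:46158072-46161013) had 4, so exon 7 took 15.4% of the 26 reads that left exon 5 (interval 4.36 to 34.9%). Counted where the forms join again, at the start of exon 8, the junction from exon 7 (chr17:46155829-46157939) had 14 reads, and the share with exon 7 was 38.9% of 36 reads (23.1 to 56.5%). The short form had more spliced reads than the longer form at both sites, at 84.6% and 61.1%. Its interval at exon 8 was 43.5 to 76.9%, so that count does not order the 2 forms. The share of the longer form also depends on which end of exon 7 is counted. Exon 5 has only 30 bases, exon 7 has 132, and 2 further stimulated reads joined exon 7 to an acceptor absent from the annotation. With no mock read at any of these sites, the use of the forms could not be set against the mock library.

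**Figure D2:**
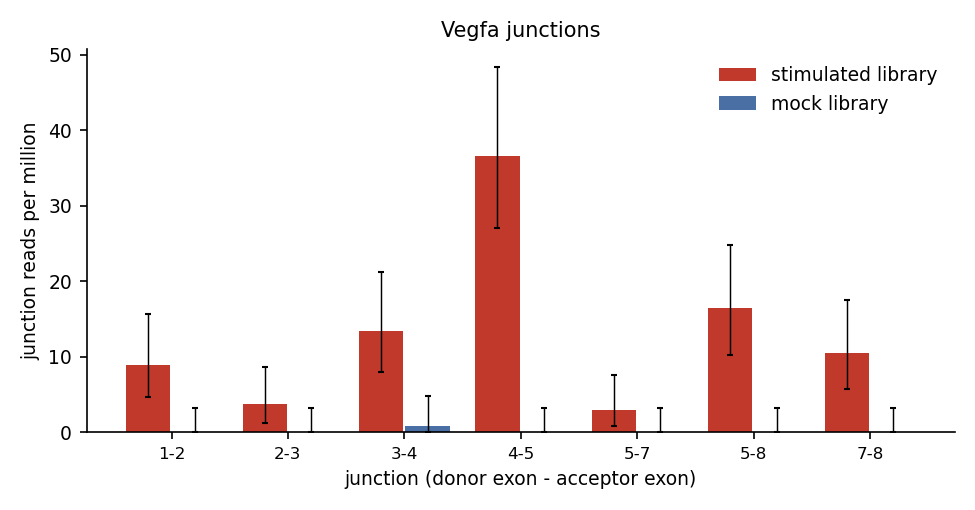
Vegfa junction RPM for each named junction, in the stimulated and mock libraries, with exact Poisson 95% intervals. Stimulated values run from 2.98 (exon 5 to exon 7) to 36.5 (exon 4 to exon 5), and the mock library has 1 read in all, between exons 3 and 4.

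Of 10 genes listed for VEGF ligands and receptors, 3 were measured. Besides Vegfa these were Vegfb, the ligand of the first VEGF receptor, lower at 9 stimulated and 19 mock reads (ratio 0.405, 0.161 to 0.940), and Nrp1, a coreceptor of VEGF and semaphorins, at 86 and 88 reads (ratio 0.836, 0.614 to 1.14). With the trimmed mean, which adds 0.24 to its log2 upper limit of −0.09, the interval of Vegfb includes 1. Vegfc, Pgf, Kdr and Flt4 had no named junction, and Flt1 had 2 stimulated reads and no mock read. By distance in log2 ratio and log2 total reads over the 2 libraries, the gene most like Vegfa among those with at least 100 reads was Bysl, with 131 and 1 reads (distance 0.112). Gpatch4, with 157 and 3 reads, and Slamf7, with 231 and 4, came after it at distances of 1.29 and 1.43. Vegfa is also made by macrophages and stromal cells, whose markers were therefore counted.

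Markers of other cells of the spleen were read in both libraries. The 11 myeloid markers summed to 56 stimulated and 69 mock reads (41.8 and 60.1 RPM), with Lyz2 at 0 and 15 reads, Flt3 at 0 and 8, Cd68 at 11 and 10, and Cybb at 19 and 5. Of 10 endothelial and stromal markers, Cdh5, Kdr, Tek, Tie1, Col1a1, Col3a1 and Pdgfrb had no named junction and Vwf and Egfl7 had 1 or 2 reads a library. Pecam1, which naive T cells also carry, had 97 stimulated and 504 mock reads, and the other endothelial and stromal markers summed to 3 and 2. B cell markers summed to 214 and 281 reads (160 and 245 RPM, more than Vegfa in either library), against 8230 and 5952 for 9 T cell markers. Cd8b1 had 5 and 16 reads, and the 5 NK cell markers had 22 and 38. The B cell, myeloid and NK cell sums were lower in RPM in the stimulated library, but no interval was computed for these sums. Of the 6 measured B cell markers 1 was called lower and 5 were called neither higher nor lower. Of the 3 measured myeloid markers, however, Cybb was called higher and 0 were called lower. The part of these cells in the Vegfa reads was not tested.

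Hif1a, the oxygen-regulated chain, had 1044 stimulated and 558 mock reads, or 778 and 486 RPM. The ratio was 1.60 (1.44 to 1.78), above 1 but short of 2-fold, and it would be called higher with a limit of 1.5-fold. It had 14 named junctions at chr12:75009312-75046538 (mm9, plus strand), and 13 of them had higher RPM in the stimulated library. The difference was uneven along the gene. Exon 1 to exon 7 held 570 stimulated and 230 mock reads (ratio 2.12, 1.82 to 2.47), exon 7 to exon 12 held 303 and 279 (ratio 0.929, 0.787 to 1.10), and the junctions after exon 12 held 171 and 49 (ratio 2.99, 2.16 to 4.19). The middle stretch holds the only junction of the gene with lower RPM in the stimulated library, from exon 11 to exon 12. These stretches, like those of the other genes below, were set after the values were seen.

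A single short intron of 108 bases, between exons 11 and 12 (chr12:75042840-75042947), went against the rest of Hif1a, with 84 stimulated and 120 mock reads (ratio 0.599, 0.448 to 0.798). Its neighbours stood at 98 and 74 reads between exons 10 and 11 and at 162 and 47 between exons 12 and 13. Without it the gene had 960 and 438 reads and a ratio of 1.87 (1.67 to 2.10). The variance of the junctions of Hif1a around a common ratio was 8.83 times that of counting, over 12 junctions of at least 10 reads. Among 490 genes with at least 10 such junctions and a total within 2-fold of that of Hif1a, the median was 2.06, and 5 genes had a larger value.

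**Figure D3:**
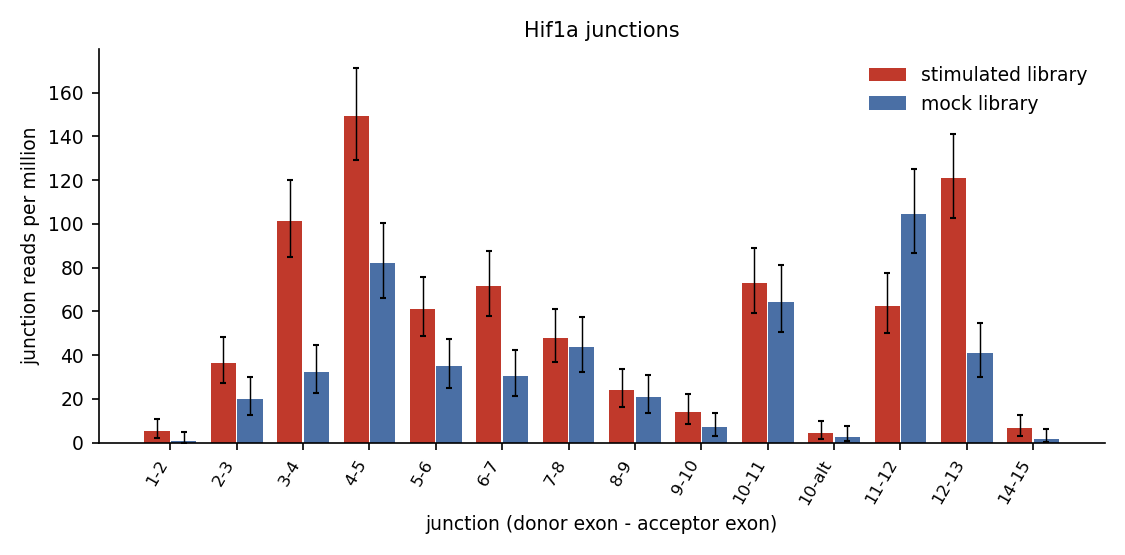
Hif1a junction RPM for each named junction in the stimulated and mock libraries, with exact Poisson 95% intervals; alt marks the later acceptor of exon 11. The stimulated bar is above the mock bar at each junction except exon 11 to exon 12, where the values are 62.6 and 105.

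The ends of the Hif1a transcript were thinly covered. The junction from exon 1 to exon 2 had 7 stimulated reads and 1 mock read. Mouse Hif1a has another first exon further upstream, which has been described in activated T cells, and its junction to exon 2 was listed in neither library. The junction from exon 13 to exon 14 was not listed either, although 162 and 47 reads entered exon 13, while exon 14 to exon 15 had 9 and 2. The files list junctions that an aligner accepted, so a junction missing from both libraries is no measure of the RNA.

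Hif1a also used a second acceptor in exon 11 in both libraries, which drops its first 42 bases. It is shown because it was the one annotated choice in Hif1a read in both libraries. The capitals are the bases left out, between 20 bases on each side, from GENCODE transcripts on chromosome 12.
Hif1a end of exon 10 and start of exon 11: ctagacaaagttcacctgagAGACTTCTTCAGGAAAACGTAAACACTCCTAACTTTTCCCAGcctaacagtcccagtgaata
The later acceptor took 6 of 104 reads in the stimulated library, or 5.77% (2.15 to 12.1%), and 3 of 77 in the mock library, or 3.90%, which lies within the stimulated interval. Exon 5 was skipped by 2 of 202 stimulated reads leaving exon 4 and by none of 94 in the mock library, which allows up to 3.85% there by its exact interval.

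The genes nearest to Hif1a in log2 ratio and total reads over the 2 libraries included Smarca4, with 1064 and 581 reads (distance 0.0491), and Dhx15, with 989 and 505 (0.120). Epas1, which encodes the related alpha chain HIF-2, was lower, with 31 stimulated and 90 mock reads (ratio 0.295, 0.189 to 0.448). The 2 alpha chains thus had ratios on opposite sides of 1, and their intervals did not overlap. Hif3a had no named junction.

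Arnt, the stable partner chain, was lower, with 102 stimulated and 243 mock reads, or 76.1 and 212 RPM. It was 2.79-fold lower (2.20 to 3.55). All of its 21 named junctions, at chr3:95238484-95299225 (mm9, plus strand), had lower RPM in the stimulated library, and 3 were seen in the mock library only. The ratio was lower toward both ends. Exon 1 to exon 13 held 17 stimulated and 65 mock reads (ratio 0.224, 0.123 to 0.386), and the junctions after exon 19 held 17 and 68 (ratio 0.214, 0.118 to 0.368). The 6 junctions between exons 13 and 19 held 68 and 110 (ratio 0.529, 0.385 to 0.722). The most-read junction, from exon 16 to exon 17, had 20 and 36 reads and a log2 ratio of −1.07, against −1.48 for the whole gene. The variance around a common ratio was 1.82 times that of counting, near the 2.01 found over 4909 genes.

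A 3-base choice at the start of exon 20 of Arnt appeared in the mock library alone. The later acceptor had 5 of 16 mock reads that left exon 19, or 31.2% with an interval reaching 58.7%, and 0 of 5 stimulated reads, which allows up to 52.2% by its exact interval, so no difference was detectable at this depth. The 3 bases are in capitals, between 20 bases on each side, from GENCODE transcripts on chromosome 3.
Arnt end of exon 19 and start of exon 20: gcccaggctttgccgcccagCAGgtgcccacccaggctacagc

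Among 11 genes listed as bHLH-PAS partners or relatives of ARNT, 3 were measured. The circadian genes Clock and Arntl were lower, with 34 and 61 reads (ratio 0.477, 0.304 to 0.737) and with 104 and 226 reads (ratio 0.394, 0.309 to 0.499). With the trimmed mean, which adds 0.24, the log2 ratio of Clock, −1.07 as scaled here, falls short of 2-fold. Npas4, an activity-induced factor best known from neurons, had 20 stimulated reads and no mock read. With the mock count set to 3 reads its ratio was 5.70, and its lower interval limit was 4.22. Ahr, the dioxin receptor that pairs with ARNT, had 2 reads in each library.

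**Figure D4:**
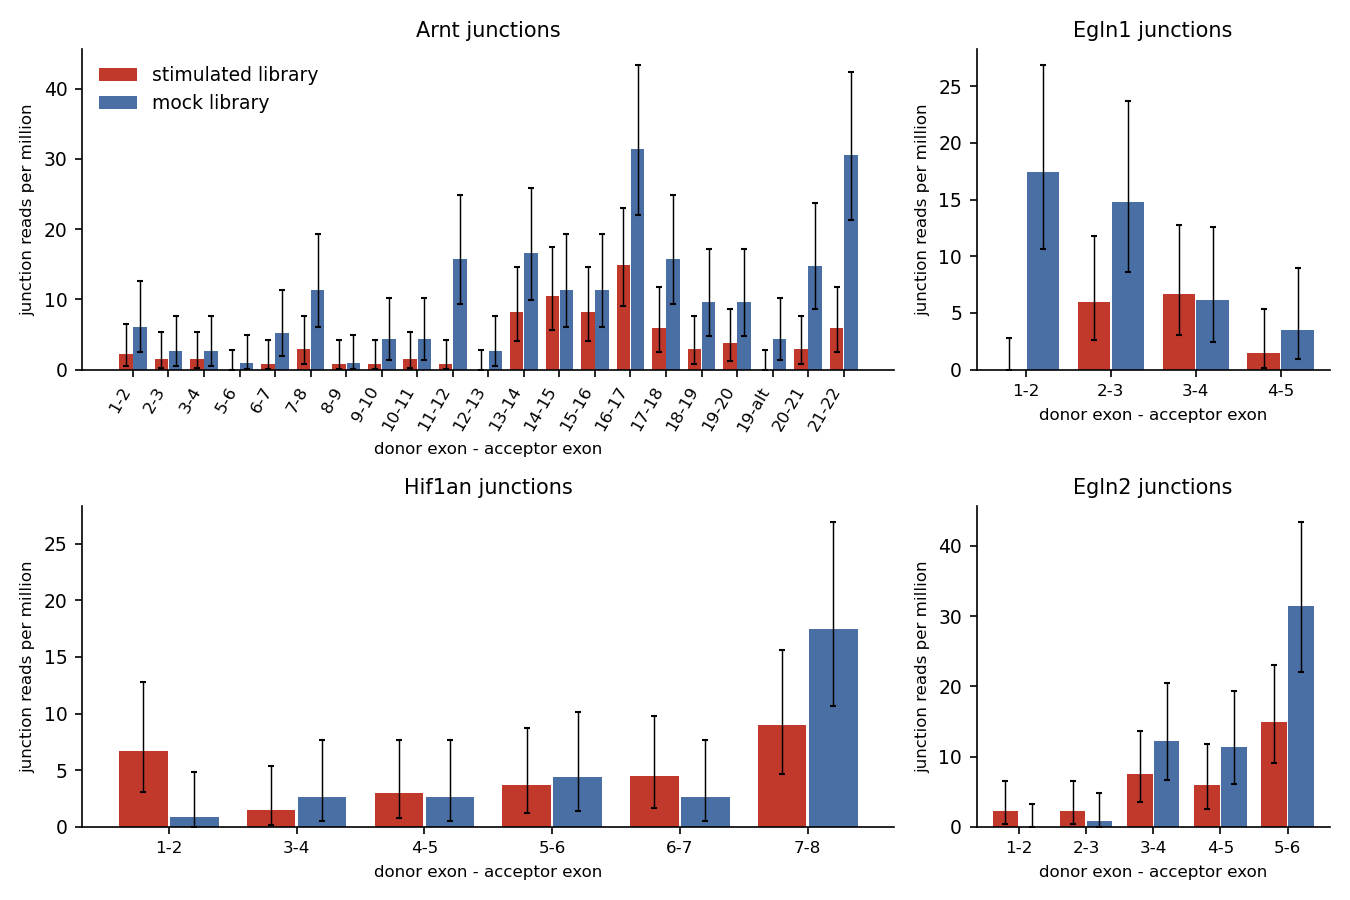
Junction RPM for Arnt, Egln1, Hif1an and Egln2 in the stimulated and mock libraries, by donor and acceptor exon, with exact Poisson 95% intervals; alt marks the later acceptor of Arnt exon 20. All Arnt bars are lower in the stimulated library, and Egln1 has 0 RPM in the stimulated library and 17.4 RPM in the mock library between exons 1 and 2.

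Egln1 encodes PHD2, the prolyl hydroxylase that does most of the oxygen sensing in many cells, and is itself induced by HIF-1. It was lower, with 19 stimulated and 48 mock reads, or 14.2 and 41.8 RPM, and was 2.95-fold lower (1.70 to 5.32). The difference rested on the first of its 4 junctions (chr8:127439681-127472132, mm9, minus strand), which crosses an intron of 32452 bases and had 0 stimulated and 20 mock reads. The interval of that ratio reaches up to 0.173. From exon 2 on, the counts were 8 and 17, 9 and 7, and 2 and 4. Without the first junction the gene had 19 and 28 reads, a ratio of 0.580 and an interval of 0.306 to 1.08, so the call was lost. The variance around a common ratio was 7.18 times that of counting over 3 junctions. Exon 1 has 1092 bases and held no read on any other stimulated junction, while 1 mock read joined it to exon 5.

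Egln2 encodes PHD1, a prolyl hydroxylase found mainly in the nucleus. It had 44 stimulated and 64 mock reads, or 32.8 and 55.8 RPM, a ratio of 0.588 (0.391 to 0.877) that fell short of 2-fold and would be called lower with a limit of 1.5-fold. Its 3 junctions from exon 3 on (chr7:27944231-27945306, mm9, minus strand) held 20 and 36, 8 and 13, and 10 and 14 reads, from the last to the first, and together had a ratio of 0.516 (0.336 to 0.784), with a variance around it of only 0.128 times that of counting. The first 2 junctions had 6 stimulated reads and 1 mock read together. The most-read junction alone had a log2 ratio of −1.07 and would be called lower. Egln3, the most oxygen-responsive of the family, had 3 and 1 reads.

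Hif1an encodes FIH, an asparagine hydroxylase that keeps the factor from recruiting its coactivators. It had 38 stimulated and 35 mock reads, or 28.3 and 30.5 RPM, with a ratio of 0.929 (0.571 to 1.51). Of 6 named junctions (chr19:44637545-44645603, mm9, plus strand) 3 had higher and 3 had lower RPM in the stimulated library. The first junction had 9 stimulated reads and 1 mock read, and the last had 12 and 20. Without the first the ratio was 0.730 (0.429 to 1.23), and without the last, the most-read, it turned to the other side of 1, at 1.48 (0.757 to 3.01). The 3 sensors thus had ratios of 0.339, 0.588 and 0.929, and the intervals of all 3 overlapped with each other.

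Vhl encodes the subunit of the ubiquitin ligase that binds the hydroxylated alpha chain. No Vhl junction could be named from the distance between its junctions, and the junction from exon 1 to exon 2 was listed in neither library. At the place given by the neighbouring genes on both sides, an intron of the right length between exons 2 and 3 (chr6:113578209-113579378, mm9, plus strand) had 1 stimulated read, and an intron of another annotated Vhl transcript (chr6:113579636-113581462) had 1 mock read. Both counts are under the limit that a count of 0 allows, so no ratio is given. The other parts of the ligase were better covered. Eloc, which encodes elongin C, was higher, with 74 and 29 reads (ratio 2.18, 1.40 to 3.48). The scaffold Cul2, with 116 and 63 reads, and the elongin B gene Elob, with 14 and 8, were called neither higher nor lower. The ratio of Cul2 was 1.57 (1.15 to 2.18) and the interval of Elob ran from 0.586 to 4.12. Rbx1, the RING subunit, was under the minimum at 15 and 2 reads.

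Of 23 genes listed as regulators of the factor besides Hif1an, 17 were measured. Of these 1 was higher (5.88%, against 17.1% of all genes) and 4 were lower (23.5%, against 25.1% of all genes), and the median log2 ratio was −0.44, against −0.21 for all genes. Hsp90ab1, a chaperone that holds the alpha chain until it pairs, had the highest ratio (2.44). Usp33, a deubiquitinase, had the lowest, with 95 stimulated and 216 mock reads (ratio 0.376, 0.292 to 0.481). Ubxn7 (0.455), Os9 (0.485) and the histone demethylase Kdm3a (0.437) were also lower. Their log2 ratios were −1.14, −1.04 and −1.20. With the trimmed mean, which adds 0.24, they fall short of 2-fold, and Senp1, at 0.85 as scaled here, passes it. The counts of higher and lower regulators thus depend on the scaling. The coactivators Ep300, with 338 and 564 reads, and Crebbp, with 407 and 567, were called neither higher nor lower. Their ratios were 0.513 (0.447 to 0.588) and 0.614 (0.539 to 0.699). Rack1, which takes the alpha chain to degradation without oxygen sensing, had the most reads, 4849 and 4159, and a ratio of 0.997 (0.957 to 1.04). Mtor, whose kinase raises translation of the alpha chain, stood at 199 and 195 reads.

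Genes known as targets of hypoxia factors lay in both directions. Of 72 listed targets other than Vegfa and Egln1, 38 were measured. Of these 13 were higher (34.2%, against 17.1% of all genes) and 6 were lower (15.8%, against 25.1% of all genes). The other 19 were called neither higher nor lower. The median log2 ratio was −0.01, against −0.21 for all genes. In the list for glucose and energy metabolism 7 of 15 were higher (46.7%) and 1 was lower (6.67%), with a median of 0.83. In the list for other functions, which includes Vegfa and Egln1, 7 of 25 were higher (28.0%) and 6 were lower (24.0%, near the 25.1% of all genes), with a median of −0.58. Counts of higher targets ranged from 10 to 15 under the other settings tried, apart from a limit of 4-fold, which left 6.

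Among metabolic targets, Slc2a1, the glucose transporter GLUT1, had 132 stimulated and 32 mock reads (ratio 3.53, 2.38 to 5.37). The phosphofructokinase gene Pfkp had 1051 and 271 (3.32, 2.90 to 3.81) and Ldha, which makes lactate, had 133 and 36 (3.16, 2.17 to 4.70). Pkm, for pyruvate kinase, had 518 and 177 (2.50, 2.11 to 2.99), and Lonp1, a mitochondrial protease, had 558 and 119 (4.01, 3.29 to 4.93). Hk2 had the highest ratio of the list, 37.6, from 44 and 1 reads (6.41 to 1520), and Pfkfb3 stood at 2.08. Hk1, the hexokinase that resting cells use, had 208 and 211 reads (0.843, 0.693 to 1.03). Aldoa had the most reads and stood at 1.78. The only gene of the list called lower was Pdk1, whose kinase curbs pyruvate dehydrogenase in mitochondria, with 38 stimulated and 248 mock reads (0.131, 0.0906 to 0.185). Gapdh, Pgk1, Pgam1 and Slc16a3 had no named junction and are not described.

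Among other targets, Tfrc, the transferrin receptor for iron uptake, had 878 stimulated and 45 mock reads, the most of the list (ratio 16.7, 12.4 to 23.1). Ndrg1 had 401 and 88 reads (3.90, 3.09 to 4.97), Fam162a 199 and 41 (4.15, 2.95 to 5.96), and the repressor Bhlhe40 152 and 32 (4.06, 2.76 to 6.15). Ero1l, an oxidase of the endoplasmic reticulum, had 222 and 70 (2.71, 2.07 to 3.60). Car12, a carbonic anhydrase, had 20 stimulated reads and no mock read. With the mock count set to 3 reads its ratio was 5.70, and its lower interval limit was 4.22. The lowest was Zfp395, with 12 and 73 reads (0.141, 0.0695 to 0.261). Narf (0.153), Ccng2 (0.178), Plod1 (0.367) and Kdm3a were also lower, though Kdm3a falls short of 2-fold with the trimmed mean. Adm, at 6 and 1 reads, and Ddit4, at 15 and 1, were under the minimum. The listed targets thus lay on both sides of the median of all genes. The ratio of Vegfa was above that of each of them. Its interval overlapped those of Hk2 and Tfrc, however, and the interval of Car12 has no upper limit.

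**Figure D5:**
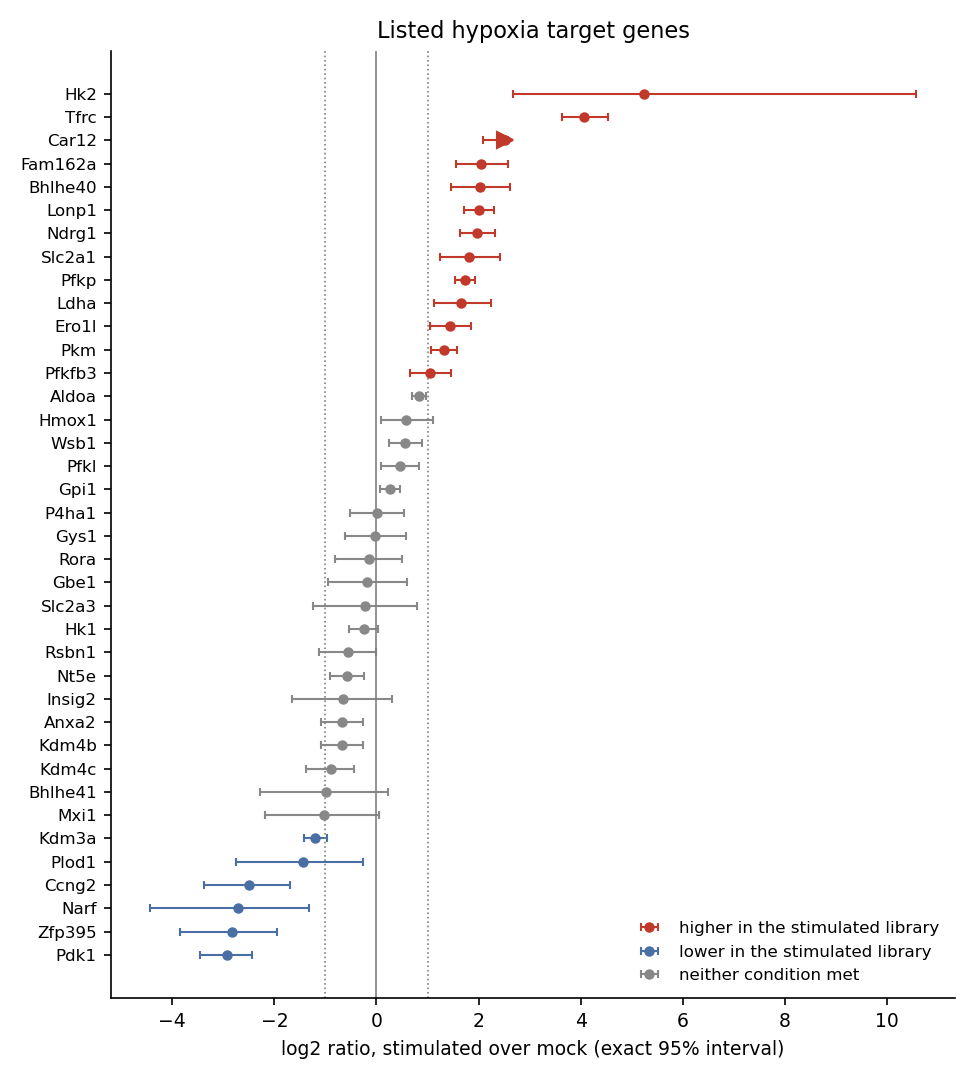
Log2 ratio of stimulated over mock with its exact 95% interval for the 38 measured hypoxia target genes, sorted, with dotted lines at a 2-fold difference. The triangle marks Car12, which has no mock read and no upper interval limit. Hk2 and Tfrc are at the top (5.23 and 4.06) and Pdk1 and Zfp395 at the bottom (−2.93 and −2.83).

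The letters of the binding core were looked for in the 250 bases before each start given by RefSeq (GRCm38.p6), where all 7 genes had an entry. ACGTG on either strand was present in 16.6% of 32851 such windows, GCGTG in 28.2%, and at least 1 of them in 38.6%. The windows of Vegfa and Egln1 are shown because these genes had the highest and the lowest ratio, with matches in capitals. Both are on the minus strand and are written 5′ to 3′ toward the start.
Vegfa, chr17:46032378-46032627: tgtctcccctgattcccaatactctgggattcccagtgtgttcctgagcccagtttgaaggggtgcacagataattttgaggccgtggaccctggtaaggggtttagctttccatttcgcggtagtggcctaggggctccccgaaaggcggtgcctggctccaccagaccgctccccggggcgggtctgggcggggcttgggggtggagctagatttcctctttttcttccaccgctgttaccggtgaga
Egln1, chr8:124949255-124949504: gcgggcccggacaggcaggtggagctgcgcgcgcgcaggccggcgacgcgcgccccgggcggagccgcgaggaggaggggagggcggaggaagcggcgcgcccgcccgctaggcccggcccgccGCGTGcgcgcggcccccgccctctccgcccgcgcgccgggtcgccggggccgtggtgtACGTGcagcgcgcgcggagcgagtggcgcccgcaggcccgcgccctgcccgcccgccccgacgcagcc
The Egln1 window held 1 match to each core and the Vegfa window at its main start held none, which says only that the letters are not in these 250 bases. A second Vegfa start listed inside the gene held 1 match to each. Hif1a held ACGTG 3 times, counting both strands of a palindrome, Arnt held GCGTG once, and the main start of Egln2 held ACGTG once and GCGTG 3 times. Hif1an and Vhl held neither. GC content was 86.0% in the Egln1 window and 59.2% in that of Vegfa.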

How the data were processed

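The authors deposited splice junctions of 2 libraries in BED format, called with TopHat per the file headers, on mm9 per the submitters' processing notes, which also name Cufflinks. The sources used here give no versions or settings. The score column holds counts of reads spanning each junction, as deposited, with no normalization. Mean insert sizes were 199.014 bp for the stimulated library and 211.79 bp for the mock library, per the labels. Junctions the aligner did not accept add nothing, so a gene with missed junctions has too low a value.

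The annotation given, GENCODE M21, is on GRCm38, and no coordinate was converted. A junction took a gene's name when chromosome, strand and intron length fitted an annotated intron and its distance to at least 1 other such junction fitted a transcript of that gene. Of 124183 junctions 95293 (76.7%) were named, and 364 that fitted several genes were left out. Tested on simulated data of 1000 genes, 98.0% of 8444 junctions were named correctly and 0 wrongly. Those junctions were drawn from the same annotation, so the test does not measure how well the real junctions were named. Exons are numbered on the annotated transcript with the most exons. Junction positions are mm9, from 1, and promoter positions GRCm38.p6.

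Gene counts were summed, divided by the total junction reads, and compared as a ratio with an exact interval, computed in Python 3.11.15 with scipy 1.17.1. For a ratio, a count of 0 was replaced by 3 reads. No p-value was computed, since 1 library per group gives no spread between samples. The trimmed mean of M values came from edgeR 4.0.16. The members, lists, and rule for named genes (all 7 members, and the highest, lowest and most-read gene of each list, with others whose role is explained) were chosen with earlier results of these data known. The settings tried are other scalings, other gene summaries, read minimums of 1 and 50, limits of 1.5-fold and 4-fold, intervals widened by the variance between junctions, and, added after seeing the data, placing junctions by neighbouring genes. A further gene among those most like Hif1a is not reported here.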

Additional observations from a re-analysis of the deposited data

How the results depend on the processing

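Vegfa stayed higher, and Arnt lower, under each setting tried except that a limit of 4-fold left Arnt uncalled and that counting only junctions seen in both libraries left Vegfa under the minimum. That count lowers such a gene by construction. The log2 ratio of Hif1a, 0.68, was 0.90 with the median of ratios, 0.92 with the trimmed mean, 0.86 from the most-read junction and 0.85 as the median over junctions. The first 2 shifts come from an offset added to every gene, and the cause of the other shifts was not tested. From the most-read junction alone Arnt was at −1.07, Vegfa at 3.80 and Hif1an at −0.96, and from junctions seen in both libraries Vegfa was at 3.94. Egln1 was not called from junctions seen in both libraries (−0.78) nor at 4-fold. A limit of 4-fold gave 482 higher and 631 lower genes of all, and 6 higher targets. The share of exon 7 in Vegfa was 38.9% counted at exon 8, against 15.4% at exon 5. Leaving out its most-read junction turned Hif1an to 0.57. Widening the intervals by the variance between junctions over all genes (2.01 times counting) changed no call of the 6 genes. The larger spreads of Hif1a (8.83), Egln1 (7.18) and Hif1an (4.2) themselves were not applied. No paired analysis was possible because each group has 1 library. Low counts limit Vhl, Egln3 and the Vegfa forms in the mock library, where counts are 1 or 0. Whether depth or the aligner keeps the Vhl counts low was not tested.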
